A study of Mus musculus with 7 samples.

Results

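Natural killer (NK) cells and cytotoxic T cells kill infected or transformed cells by releasing granules that hold perforin and granzymes. NK cells carry germline-encoded receptors that weigh activating against inhibitory ligands on the target, and the T-box factors Eomes and T-bet direct their maturation. The lung holds many circulating NK cells in its capillary bed. In lung tissue of Scgb3a2 knockout mice, none of the 10 NK and cytotoxic lymphocyte genes described here passed the test against wild type lung. Median log2 fold changes were -0.13 for the 10 genes and 0.83, 1.41 and 2.09 for T cell, B cell and plasma cell markers. Without the knockout library KO5 these medians were -0.54, 0.48, 0.61 and 0.60. None of these markers passed the same test, by edgeR, either. DESeq2 called Cd4, Cd6, Jchain, Igkc and Igha among them, and 0.224% of all genes. Knockout and wild type values overlapped for all 10 NK and cytotoxic genes, as they did for all but 3.72% of the genes tested.

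The genes were taken by symbol from the raw gene count matrix, and all 10 were found among its 28828 entries. They are the granule genes Gzma, Gzmb, Prf1 and Nkg7, the receptor genes Ncr1, Klrb1c, Klrd1 and Klre1, and the regulators Eomes and Tbx21. The study sequenced total RNA of lung tissue of C57BL/6 mice in 3 knockout libraries, in which the airway secretoglobin gene Scgb3a2 is disrupted, and 4 wild type libraries. Libraries are named by genotype and the number in their titles (KO3, KO4, KO5, WT2, WT3, WT4 and WT6). Every title also carries the letter P, which is left out here and whose meaning is not stated. Age, sex, any treatment and the kind of allele are not stated in the labels, nor is it stated whether each library is a mouse of its own, and the p-values therefore refer to variation among libraries, which may be technical. Errors after ± are SDs over 3 knockout or 4 wild type libraries unless given as SE.

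Library totals lay between 13071262 and 16480006 counts. Scgb3a2 had 19, 19 and 37 counts in the knockout libraries, against 2636 to 4204 in the wild type libraries, so the level in each library matched its label. KO5 and WT6 stood apart from the other libraries of their genotypes. Their deviations from the genotype means correlated at 0.59 across 19832 genes, which are not independent replicates, and their mesothelial marker genes summed to 163 CPM in KO5 and 152 CPM in WT6, against 62.1 to 88.7 CPM in the other libraries. CPM values are counts relative to library size, scaled by edgeR's TMM factors.

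RefSeq promoter windows (GRCm38.p6) were found for 9 of the 10 genes, and the 250 bases before the RefSeq start are printed for 4 of them. Gzma, Prf1 and Nkg7 were chosen because they hold the core of the T-box motif, the element that T-bet and Eomes bind, and Ncr1 because it had the lowest fold change of the 10 genes. Capitals mark the T-box core (AGGTGT, or ACACCT on the other strand) and the core of the RUNX motif (TGTGGT, or ACCACA on the other strand). The Gzma window lies at chr13:113100982-113101231 on the minus strand, Prf1 at chr10:61297586-61297835, Nkg7 at chr7:43436888-43437137 and Ncr1 at chr7:4337465-4337714, the last 3 on the plus strand. All are written 5′ to 3′ along the gene.
Gzma: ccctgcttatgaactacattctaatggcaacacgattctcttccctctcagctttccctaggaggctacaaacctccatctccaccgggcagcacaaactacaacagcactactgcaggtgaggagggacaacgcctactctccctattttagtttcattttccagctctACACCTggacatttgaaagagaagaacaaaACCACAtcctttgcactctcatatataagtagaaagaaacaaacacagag
Prf1: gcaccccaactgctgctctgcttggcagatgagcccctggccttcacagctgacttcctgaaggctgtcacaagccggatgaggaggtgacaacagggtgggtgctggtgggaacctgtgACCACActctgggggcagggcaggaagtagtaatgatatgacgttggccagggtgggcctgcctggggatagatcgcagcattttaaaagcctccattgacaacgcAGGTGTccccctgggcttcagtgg
Nkg7: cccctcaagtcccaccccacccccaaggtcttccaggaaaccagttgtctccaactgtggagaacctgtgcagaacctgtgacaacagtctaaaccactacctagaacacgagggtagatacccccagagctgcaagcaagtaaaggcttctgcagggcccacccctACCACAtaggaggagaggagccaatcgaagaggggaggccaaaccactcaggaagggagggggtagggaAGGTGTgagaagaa
Ncr1: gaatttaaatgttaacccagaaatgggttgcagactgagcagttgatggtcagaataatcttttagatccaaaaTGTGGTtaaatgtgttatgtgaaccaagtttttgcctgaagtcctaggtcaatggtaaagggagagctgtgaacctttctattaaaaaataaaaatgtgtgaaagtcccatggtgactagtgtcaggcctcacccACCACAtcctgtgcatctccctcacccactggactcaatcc

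The T-box core was found in 3 of the 9 genes and in 11.8% of all 32851 windows of this length. The 9 genes had 11 windows, and a gene was counted if any of its windows matched, whereas the percentages count windows. Counted from the RefSeq gene start, the T-box core begins at position -80 in Gzma, -24 in Prf1 and -14 in Nkg7. Starts can differ between annotations. In GENCODE M21 Nkg7 begins at chr7:43437073, inside its window, so its T-box core lies within that annotated gene. The RUNX core was found in 7 of the 9 genes (all but Eomes and Tbx21) and in 14.0% of all windows. Klrb1c and Klre1 are among these 7, although their windows lie within the genes as annotated by GENCODE. The RUNX core begins at position -50 in Gzma, -130 in Prf1 and -83 in Nkg7, and at -176 and -41 in the printed Ncr1 window. In the other Ncr1 window it begins at -185 and -50. RUNX factors, Runx3 among them, take part in cytotoxic lymphocyte development. The letters TCACAC, a neighbouring part of the T-box element that overlaps its core, were found in 4 of the 9 genes (12.3% of windows), and GGAAGT of the ETS motif in 3 (19.7%). The full AGGTGTGA (1.12% of windows) and its shorter forms GGTGTGA (3.33%) and GGTGTG (16.3%), which overlap the core, matched Nkg7 alone, and TGACATCA (2.93%) matched Klrb1c alone. GGAAGTG (8.55%), CCGGAAG (6.91%) and TTCCTGTG (2.14%) matched none. Both strands were searched, the motifs were chosen with the sequences in view, and a match of so few letters is a description of the sequence, not a site.

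All 10 genes were expressed at low levels and passed edgeR's filter on low counts. Their mean CPM lay between the 2.85 percentile (Eomes) and the 30.2 percentile (Prf1) of the 19832 genes tested. The 10 genes summed to 196, 188 and 324 counts in KO3, KO4 and KO5, against 396, 255, 119 and 382 counts in WT2, WT3, WT4 and WT6. In bulk tissue, fewer cells of a type and less RNA per cell cannot be told apart. Per kilobase of annotated exon, averaged over all 7 libraries, Gzma ranked highest at 3.43 CPM per kb. It was followed by Nkg7 (2.28), Klrd1 (2.07), Prf1 (1.36), Ncr1 (0.855), Gzmb (0.832), Tbx21 (0.383), Klre1 (0.315), Klrb1c (0.288) and Eomes (0.162), each in CPM per kb. Neighbours in this order often changed places. Gzma lay above Nkg7 in 4 of 7 libraries, Nkg7 above Klrd1 in 3, Ncr1 above Gzmb in 3 and Klre1 above Klrb1c in 2. Gzmb lay above Tbx21 in 7 of 7, and the other neighbours kept their order in 5 or 6 libraries.

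No gene of the 10 passed edgeR's quasi-likelihood test at an adjusted p of 0.05, where 0.0353% of all genes tested did, and none had an unadjusted p under 0.05, against 2.87% of all genes. DESeq2 also gave 0 of 10 at either level, where it called 0.224% of all genes with an adjusted p and gave 2.43% an unadjusted p under 0.05. Knockout and wild type values overlapped for all 10, while 3.72% of all genes did not overlap. The log2 fold change, knockout over wild type, was negative for 7 genes and positive for 3. Its median was -0.13 over the 10 genes and -0.0068 over all genes tested. The median was -0.40 among the 5 libraries without WT6 and KO5 and -0.54 without KO5 alone, and it was above 0 without KO3 (0.02), KO4 (0.09), WT2 (0.06) or WT6 (0.03).

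**Figure D1:**
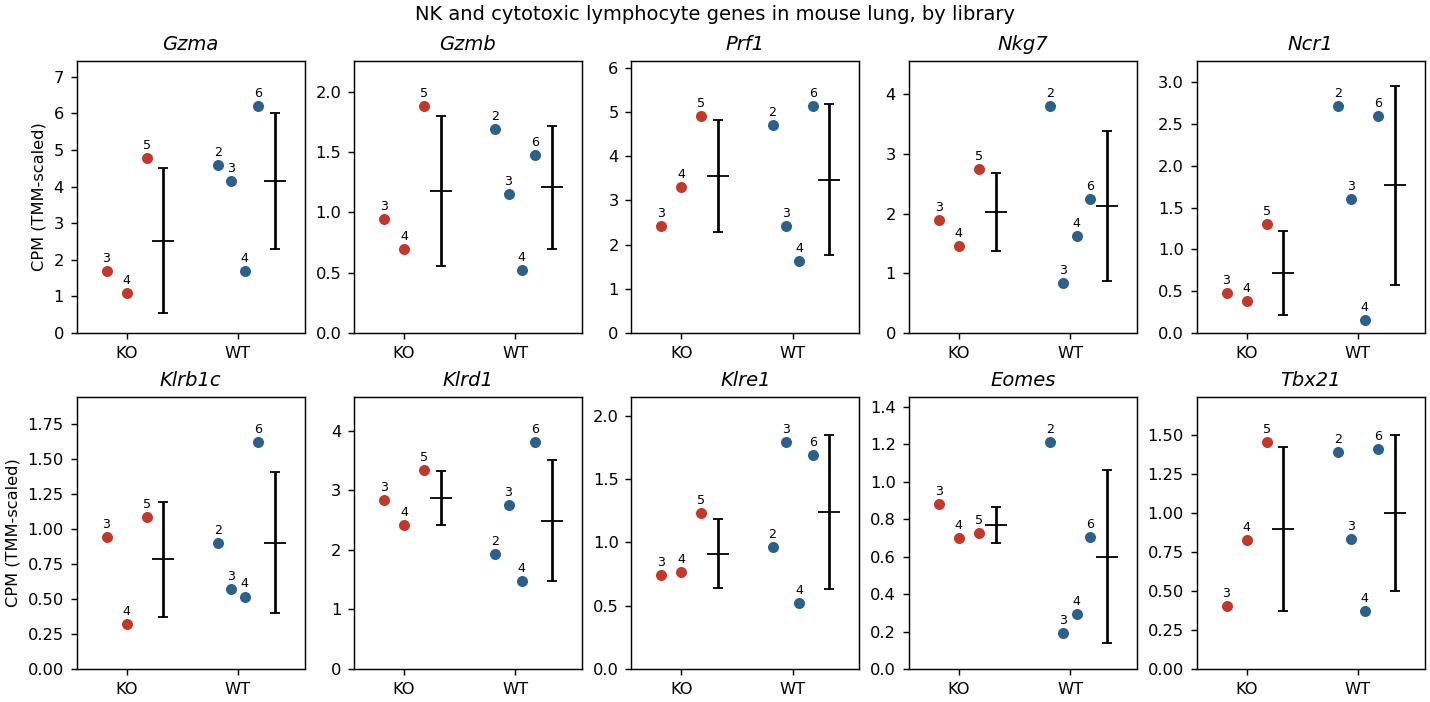
Each panel plots 1 gene in CPM (TMM-scaled), with a numbered point for each knockout (KO, red, left) and wild type (WT, blue, right) library and the mean with SD in black. The points of the genotypes overlap in every panel, and WT4 is the lowest wild type point for 8 of the 10 genes.

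Among the granule genes, Gzma encodes granzyme A, a serine protease that cuts after basic residues and enters target cells through perforin pores. Gzma (chr13:113093825-113100981, minus strand, GRCm38) had 25, 17 and 66 counts in KO3, KO4 and KO5, against 76, 65, 23 and 88 counts in WT2, WT3, WT4 and WT6. KO3 and KO4 shared the low end with WT4, and KO5 lay among the higher wild type libraries. The means were 2.52 ± 1.98 CPM in knockout lung (SD, n = 3) and 4.16 ± 1.86 CPM in wild type lung (SD, n = 4). The log2 fold change was -0.74 ± 0.53 (SE), with a 95% interval of -1.95 to 0.47 and an adjusted p of 0.9998 in edgeR. Without KO5 it was -1.58 (unadjusted p = 0.0049, adjusted p = 0.9992 in edgeR), and with a term for KO5 and WT6 it was -0.97 (adjusted p = 0.732 in edgeR).

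Gzmb encodes granzyme B, which cuts after aspartate and activates caspases in the target cell. Its counts were 14, 11 and 26 in KO3, KO4 and KO5, against 28, 18, 7 and 21 in WT2, WT3, WT4 and WT6. In CPM, KO5 (1.88) was the highest library, just above WT2 (1.69), and WT4 (0.518) was the lowest. Gzmb averaged 1.18 ± 0.624 CPM in knockout and 1.21 ± 0.51 CPM in wild type lung, with a log2 fold change of -0.06 (95% interval -1.04 to 0.92).

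Prf1 encodes perforin, the pore-forming protein of the granules. It had 36, 52 and 68 counts in KO3, KO4 and KO5, against 78, 38, 22 and 73 counts in WT2, WT3, WT4 and WT6. Prf1 averaged 3.56 ± 1.26 CPM in knockout and 3.47 ± 1.71 CPM in wild type lung, and the log2 fold change was 0.03 (95% interval -0.83 to 0.88). WT2, WT6 and KO5 lay together at 4.70 to 5.13 CPM and the other 4 libraries between 1.63 and 3.31 CPM. Nkg7, a granule membrane protein needed for granule release, had 28, 23 and 38 counts in KO3, KO4 and KO5, against 63, 13, 22 and 32 in WT2, WT3, WT4 and WT6. Both the highest and the lowest value of Nkg7 were in wild type libraries, 3.80 CPM in WT2 and 0.83 CPM in WT3. Its log2 fold change was -0.08 (95% interval -1.05 to 0.89).

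Of the receptors, Ncr1 encodes NKp46, an activating receptor found mainly on NK cells and related innate lymphoid cells. Ncr1 (chr7:4337724-4345164, plus strand, GRCm38) had 7, 6 and 18 counts in KO3, KO4 and KO5, against 45, 25, 2 and 37 counts in WT2, WT3, WT4 and WT6. In 3 wild type libraries it lay above every knockout library, and WT4 lay below all of them. The 2 counts of WT4 have an exact 95% Poisson interval of 0.242 to 7.22 counts, below the interval of 16.2 to 36.9 counts around the 25 counts of WT3. Ncr1 averaged 0.719 ± 0.508 CPM in knockout and 1.76 ± 1.19 CPM in wild type lung. Its log2 fold change of -1.32 ± 0.74 (SE) was the lowest of the 10 genes, with a 95% interval of -2.96 to 0.33 and an unadjusted p of 0.104 in edgeR. Permuting the libraries exactly (two-sided, on log2 CPM) gave p = 0.4, where the smallest possible value is 0.0286. Without WT4 the log2 fold change was -1.69 (edgeR's unadjusted p = 0.00448, adjusted p rounded to 1), and without KO5 it was -2.04 (unadjusted p = 0.0461, adjusted p = 0.9992).

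Klrb1c encodes NK1.1, the antigen by which NK cells of C57BL/6 mice are usually recognised. Its counts were 14, 5 and 15 in KO3, KO4 and KO5, against 15, 9, 7 and 23 in WT2, WT3, WT4 and WT6, and its log2 fold change was -0.22 (95% interval -1.34 to 0.91). KO4 was lowest and WT6 highest. The predicted gene Gm44511 shares exon sequence with Klrb1c on the same strand in the GENCODE M21 annotation, so reads could have been divided between them.

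Klrd1 encodes CD94, which pairs with NKG2 chains to read the class Ib molecule Qa-1. It had 42, 38 and 46 counts in KO3, KO4 and KO5, against 32, 43, 20 and 54 in WT2, WT3, WT4 and WT6. The knockout values all lay inside the wild type range. Klrd1 averaged 2.86 ± 0.457 CPM in knockout and 2.49 ± 1.02 CPM in wild type lung, and it had the narrowest interval of the 10 genes (log2 fold change 0.20, 95% interval -0.49 to 0.89). That value was 0.02 without WT4 and 0.47 without WT6. The NKG2 chains Klrc1 and Klrc2 had log2 fold changes of 0.10 (95% interval -1.42 to 1.61) and -0.29 (95% interval -1.71 to 1.13).

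Klre1, a lectin-like receptor that pairs with Klri1 or Klri2, had 11, 12 and 17 counts in KO3, KO4 and KO5, against 16, 28, 7 and 24 counts in WT2, WT3, WT4 and WT6. The knockout libraries lay between WT4 and the upper wild type pair of WT3 and WT6. Its log2 fold change was -0.45 (95% interval -1.42 to 0.51). The partner chains had values of 0.02 for Klri1 and -0.41 for Klri2 on the same log2 scale, with edgeR's adjusted p of 0.9998 for both.

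Of the regulators, Eomes had the fewest counts of the 10 genes. It encodes a T-box factor of conventional NK cells and memory CD8 T cells. Eomes had 13, 11 and 10 counts in KO3, KO4 and KO5, against 20, 3, 4 and 10 in WT2, WT3, WT4 and WT6. The knockout libraries were close together at 0.7 to 0.879 CPM, inside a wild type range of 0.192 to 1.21 CPM. Its log2 fold change was 0.33 (95% interval -0.86 to 1.52), and it was 0.95 without WT2, 0.12 without WT4 and 0.03 without WT3. The antisense gene Gm33460 overlaps an Eomes exon in GENCODE M21, and without a stated strand setting reads of the pair cannot be told apart. Tbx21 encodes T-bet, which drives interferon gamma and granule genes in NK and T cells. It had 6, 13 and 20 counts in KO3, KO4 and KO5, against 23, 13, 5 and 20 in WT2, WT3, WT4 and WT6, with a log2 fold change of -0.18 (95% interval -1.30 to 0.94). KO3 and WT4 were low together, and KO5, WT2 and WT6 high together.

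**Figure D2:**
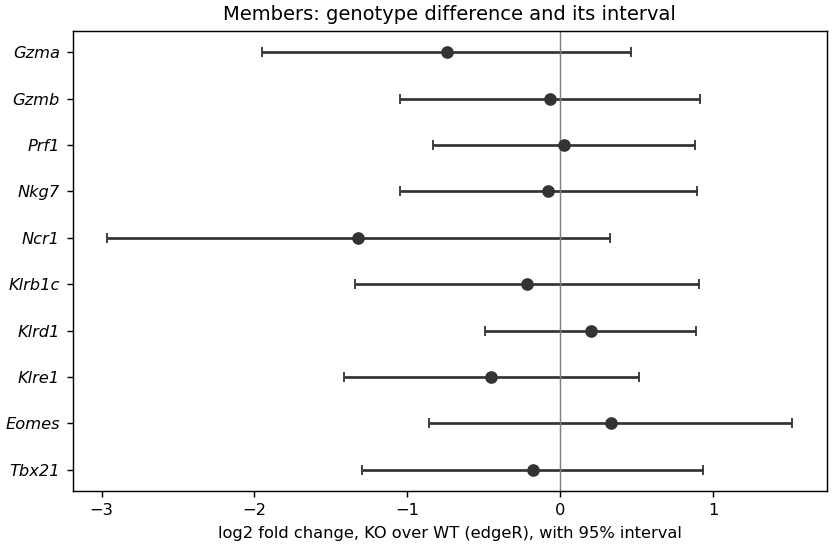
Points give each gene's log2 fold change, knockout over wild type, from edgeR, and bars its 95% interval. Every interval crosses 0, and they run from -2.96 (lower end, Ncr1) to 1.52 (upper end, Eomes).

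The 10 genes varied between libraries of the same genotype by more than counting error for most of them. The chi-square per degree of freedom of the counts, which is near 1 for counting error alone, lay between 3.05 (Gzmb) and 12.1 (Prf1) within the wild type libraries. Within the knockout libraries it was 1.08 for Klrd1, 1.20 for Klre1 and 0.183 for Eomes, and between 3.11 and 23.2 for the other 7. The highest wild type library had 2.57 times (Klrd1) to 18.3 times (Ncr1) the CPM of the lowest. The ratio of knockout to wild type means ran from 0.408 (Ncr1) to 1.28 (Eomes).

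These differences were shared among the genes. When each gene was standardized over the 7 libraries, all 10 lay above their own mean in KO5 and in WT6, and none of the 10 did in WT4. How many of all genes tested do the same was not counted. The deviations of KO5 and WT6 correlated at 0.59 across all 19832 genes, so their likeness was not particular to the 10. KO5 was the highest knockout library for 9 of the 10 genes (Eomes excepted), and WT4 was the lowest wild type library for 8 (Nkg7 and Eomes excepted). The mean of the standardized values was -0.30, -0.59 and 0.72 in KO3, KO4 and KO5, against 0.64, -0.19, -1.20 and 0.92 in WT2, WT3, WT4 and WT6. Ptprc, the CD45 gene of all leukocytes, had 138, 166 and 236 CPM in KO3, KO4 and KO5, against 144, 139, 108 and 176 CPM in WT2, WT3, WT4 and WT6. KO5 and WT6 were its highest libraries and WT4 its lowest, and WT4 also had the fewest genes with a count (25868, against 26448 to 26885 in the others). KO5 and WT6 are the libraries with high mesothelial sums given above. The part of leukocyte content, or of the tissue sampled, in the spread of the NK genes was not tested.

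**Figure D3:**
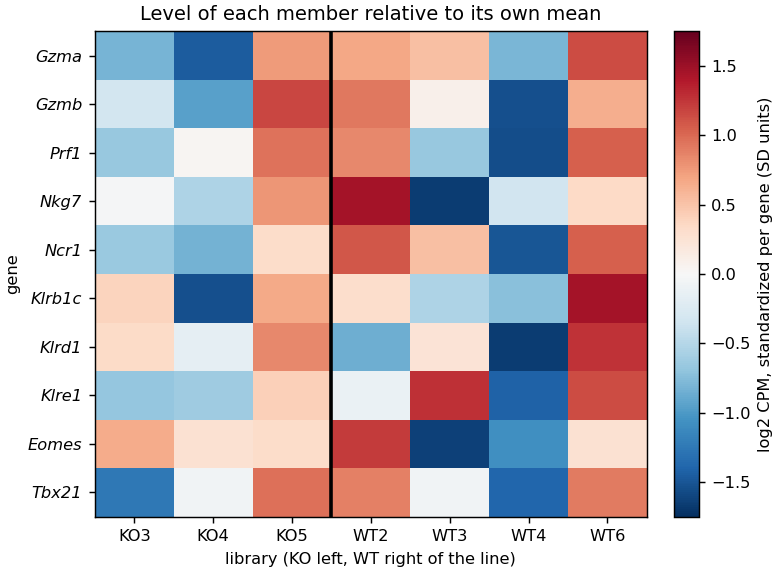
Colours give log2 CPM of each gene (down) in each library (across), standardized over the 7 libraries in SD units, with knockout left and wild type right of the line. KO5 and WT6 are above the mean for all 10 genes and WT4 is below it for all 10.

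Of 14171 other genes with a mean of at least 1 CPM, those with the profile most like the mean of the 10 were Qtrt2, Slc24a2, Aspa, Appl2 and Xkr4. The measure was the root mean square distance of standardized log2 CPM over 7 libraries, which was 0.105 to 0.197 for these and 1.30 for the median gene. Qtrt2 had 15.1, 14.7 and 17.7 CPM in KO3, KO4 and KO5, against 17.6, 15.5, 13.0 and 17.8 CPM in WT2, WT3, WT4 and WT6. With so few libraries, such likeness is a description of these samples.

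Other genes of granule release were measured beside the 10. Of 13 tested granule and death ligand genes, edgeR and DESeq2 called none, and none had an unadjusted p under 0.05 in either. The median log2 fold change was 0.01, and the values ran from -0.35 for Stx11, a fusion protein of granule release, to 0.16 for Rab27a, which docks granules. The granzyme gene Gzmm averaged 2.12 ± 1.14 CPM in knockout and 1.99 ± 0.671 CPM in wild type lung, with a log2 fold change of 0.09. Gzmk had 15 counts over all libraries and Gzmc 1, and neither was tested. Death ligand gene Fasl (46 counts in all), the interferon gamma gene Ifng (3) and the chemokine gene Xcl1 (7) were too low to test.

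Of 24 tested NK receptor and adaptor genes beyond the 10, edgeR and DESeq2 called none, and the median log2 fold change was 0.05. An unadjusted p under 0.05 was found for 2 of them in edgeR (2.87% of all genes) and for 1 in DESeq2 (2.43% of all genes). Slamf6, a SLAM family receptor of NK, T and B cells, had 5.54, 8.66 and 13.1 CPM in KO3, KO4 and KO5, against 3.80, 4.15, 2.44 and 5.56 CPM in WT2, WT3, WT4 and WT6 (log2 fold change 1.19 ± 0.31 SE, edgeR's unadjusted p = 0.00305 and adjusted p = 0.9998). KO3 and WT6 were the libraries at which the genotypes met, and without KO5 the log2 fold change was 0.84 (unadjusted p = 0.0116 in edgeR). Fcgr3, an activating Fc receptor of NK and myeloid cells, had a log2 fold change of 0.31 (unadjusted p = 0.0462 in edgeR) and knockout values of 17.6 to 19.5 CPM above all wild type values of 12.6 to 17.2 CPM. Without KO5 its p was 0.0576 in edgeR.

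None of 13 further regulators was called by edgeR or DESeq2. The lymphoid zinc finger factor Ikzf3, which is abundant in B cells and plasma cells, had the smallest p (log2 fold change 1.13, unadjusted p = 0.0146 in edgeR). It had 38.8 CPM in KO5, 11.6 and 18.4 CPM in the other knockout libraries, and 8.14 to 12.8 CPM in wild type, and its log2 fold change was 0.52 without KO5 (unadjusted p = 0.0292). Runx3 had a log2 fold change of 0.60 (unadjusted p = 0.0916), and of 0.29 without KO5. The median of the regulators was 0.21, and 0.07 without KO5. Cytokine and cytokine receptor genes also gave no call by either tool among 13 tested, with a median of 0.08. Il12rb1, a chain of the IL-12 and IL-23 receptors, had 1.08 to 1.74 CPM in knockout and 0.383 to 0.774 CPM in wild type libraries, without overlap (log2 fold change 1.17, unadjusted p = 0.0101 in edgeR, and 0.0609 without KO5).

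Neither the 8 homing and residence genes (median -0.12) nor the 13 tested ligands of NK receptors (median -0.06) had a call or an unadjusted p under 0.05 in edgeR or DESeq2. The chemokine receptor Cxcr6, found on resident lymphocytes, was at 0.31 and the integrin chain Itga2 at -0.20. Among the ligands, H60b, bound by NKG2D, was at 0.41, H2-T23, which encodes Qa-1, at -0.25, and the class I gene H2-D1 at -0.15, each as a log2 fold change with an edgeR adjusted p of 0.9998.

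Cells other than NK cells can carry several of the 10 genes, and markers of these cells were measured beside them. The 13 T cell markers had a median log2 fold change of 0.83, with 12 values above 0. The exception was Trdc, of the gamma delta T cell receptor, at -0.995 (95% interval -2.02 to 0.03). Without KO5 the median was 0.48, and without KO5 and WT6 it was 0.50. EdgeR called none of them, and 7 had an unadjusted p under 0.05, where 2.87% of all genes did. Without KO5, 4 did, 3 of them higher and 1 lower in knockout lung. DESeq2 called Cd4 and Cd6, where it called 0.224% of all genes. Cd4, the helper T cell co-receptor, had 6.02, 8.85 and 12.5 CPM in KO3, KO4 and KO5, against 4.46, 3.70, 3.48 and 3.66 CPM in WT2, WT3, WT4 and WT6 (log2 fold change 1.25, adjusted p = 0.337 in edgeR, and 0.96 with adjusted p = 0.61 without KO5). Every knockout library lay above every wild type library. The cytotoxic T cell co-receptor Cd8a had a value of 0.54 (95% interval -0.30 to 1.37), and its levels of 1.62 (KO3), 2.55 (KO4) and 4.42 (KO5) CPM overlapped a wild type range of 1.09 to 2.53 CPM. Summed over the T cell markers, the level was 31.0, 44.0 and 71.4 CPM in KO3, KO4 and KO5, against 20.0 to 29.4 CPM in the wild type libraries.

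All 8 B cell markers and all 7 tested plasma cell markers had values above 0, with medians of 1.41 and 2.09. EdgeR called none of them. An unadjusted p under 0.05 in edgeR was found for 4 B cell and 5 plasma cell markers, and for 2.87% of all genes. DESeq2 called Jchain, Igkc and Igha, where it called 0.224% of all genes. Without KO5 the medians were 0.61 for B cell and 0.60 for plasma cell markers, and an unadjusted p under 0.05 was left for 2 and 3 of them. The share over all genes without KO5 is not given here. Without KO5 and WT6 the medians were 0.88 and 0.84. Mouse mast cells can also make granzyme B. Of the mast cell and basophil markers, only Cpa3, a mast cell protease, could be tested. Its level was 1.22 (KO3), 0.7 (KO4) and 0.434 (KO5) CPM in knockout lung, against 2.11, 1.47, 0.814 and 1.97 CPM in WT2, WT3, WT4 and WT6. KO3 and WT4 were the libraries at which the genotypes overlapped. Its log2 fold change was -1.02 (unadjusted p = 0.0378, adjusted p = 0.9998 in edgeR), and -0.74 without KO5 (unadjusted p = 0.124). Mcpt8 of basophils had 3 counts over all libraries, Mcpt4 20 and Cma1 45. The summed level of the list was 1.02 to 1.69 CPM in knockout and 1.48 to 4.01 CPM in wild type libraries. The plasmacytoid dendritic cell gene Siglech had 0.406, 1.15 and 2.68 CPM in the knockout libraries, against 1.41 to 1.70 CPM in the wild type libraries. Medians were 0.35 for the 5 leukocyte markers (0.11 without KO5, 0.22 without KO5 and WT6), 0.09 for 4 group 2 innate lymphoid markers, 0.05 for 4 plasmacytoid dendritic cell markers and -0.05 for 5 mesothelial markers (-0.51 without KO5), with no call by edgeR or DESeq2. Among the lymphoid markers, Il1rl1, the IL-33 receptor gene, had 4.52 to 5.0 CPM in knockout and 5.03 to 7.31 CPM in wild type libraries, without overlap (log2 fold change -0.41, unadjusted p = 0.046 in edgeR, and 0.0849 without KO5). The part of these cells in the levels of the 10 genes was not tested.

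**Figure D4:**
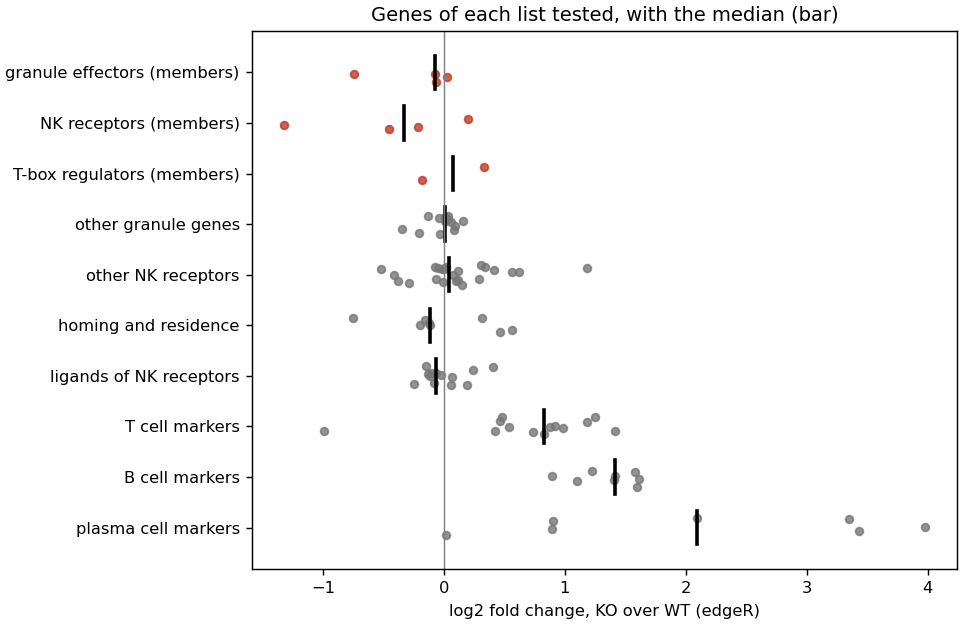
Each point is the log2 fold change of 1 tested gene, knockout over wild type, grouped by list (the 10 members in red, other lists in grey), and black bars are list medians. The medians of the members are -0.07 for granule genes, -0.33 for receptors and 0.08 for regulators (-0.45, -0.61 and -0.16 without KO5). The other NK lists centre near 0. The medians of the T cell, B cell and plasma cell markers are 0.83, 1.41 and 2.09 (0.48, 0.61 and 0.60 without KO5).

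Each gene was also set against the T cell gene Cd3e, a part of the T cell receptor complex that mature NK cells lack at the surface, as a difference of log2 CPM in each library. This was chosen after the values were seen. The 4 receptor genes summed to 0.871, 0.469 and 0.558 counts per count of the Cd3 chains in KO3, KO4 and KO5, against 1.50, 1.05, 1.09 and 1.72 in WT2, WT3, WT4 and WT6. Every knockout ratio lay below every wild type ratio. The 4 granule genes separated too, at 1.21, 0.792 and 1.15 in KO3, KO4 and KO5. Their wild type ratios were 3.40, 1.34, 2.24 and 2.68 in WT2, WT3, WT4 and WT6. Against Cd3e alone, 22% of all single genes had knockout values below all wild type values. The Cd3 chains, by which the sums were divided, had a median log2 fold change of 0.88 themselves. How often summed lists of other genes separate in this way was not tested. Cd3e itself had 2.57, 3.76 and 5.0 CPM in KO3, KO4 and KO5, against 2.23, 2.75, 1.18 and 2.25 CPM in WT2, WT3, WT4 and WT6 (log2 fold change 0.83).

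Relative to Cd3e, all 10 genes had a lower mean in knockout lung, by 0.30 (Eomes) to 1.68 (Ncr1) on the log2 scale. Of all other genes tested, 98.8% were also lower relative to Cd3e, with a median of -0.82, so a lower value relative to Cd3e was near the background. Groups did not overlap for 4 of the 10 genes (Gzma, Gzmb, Klre1 and Tbx21), where 22% of all genes had knockout values below all wild type values. Gzma differed by -1.63 and Klre1 by -1.11, each with an exact two-sided permutation p of 0.0286, the smallest that 3 against 4 libraries allow. Of 10 such tests these were the 2 under 0.05, against 11.5% of all genes. Set against Trac, of the T cell receptor alpha chain, the exact p was 0.114 for Gzma and 0.143 for Klre1, and set against Ptprc it was 0.0857 and 0.114.

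**Figure D5:**
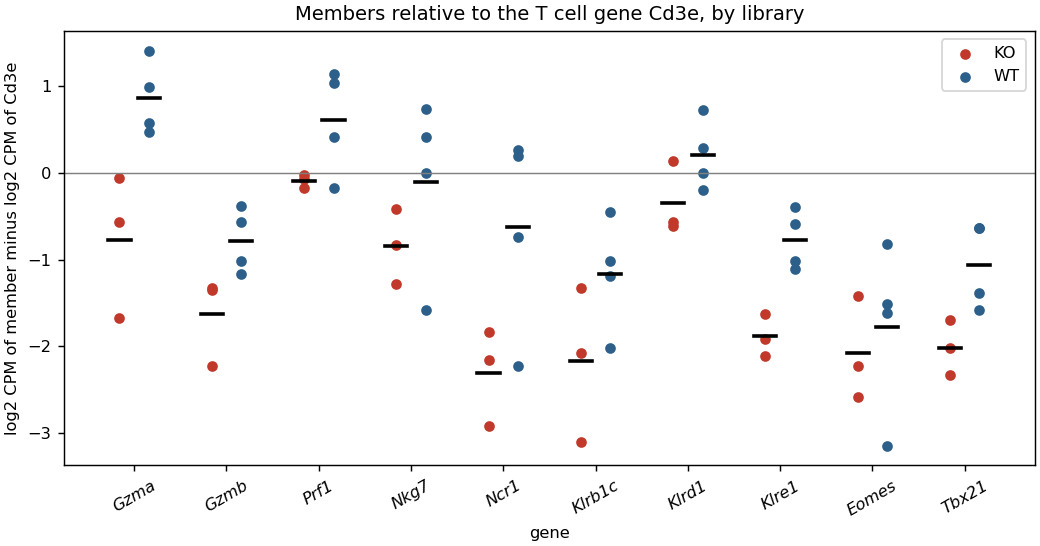
Points give log2 CPM of each gene minus log2 CPM of Cd3e in each knockout (red, left) and wild type (blue, right) library, with bars at the means. The knockout mean is lower for all 10 genes, and the points of Gzma, Gzmb, Klre1 and Tbx21 do not overlap between genotypes.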

How the data were processed

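Whole-gene read counts of 7 mouse lung libraries were used as deposited, 1 row per gene entry and not normalized. STAR, DESeq2 and the build mm10 are named in the submitters' processing notes without versions or roles. What counted the reads, on which annotation and with which strandedness was not given in the sources used here. Totals of 13071262 to 16480006 counts make a count of 0 compatible with up to 0.182 to 0.23 CPM (3 counts). Poisson intervals and this limit cover counting error only.

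Genes were tested with edgeR 4.0.16 in R 4.3.3 (TMM, its low-count filter with 19832 genes kept, robust quasi-likelihood test, genotype as the only term, two-sided, Benjamini-Hochberg adjustment over all genes, threshold 0.05). SE is the fold change divided by the root of F, and 95% intervals use the test's degrees of freedom. The procedure was tested on simulated counts. Log2 CPM used a prior count of 2. Exon lengths and gene positions came from GENCODE M21 (GRCm38, the assembly also called mm10) and promoters from RefSeq. DESeq2 1.42.0 and 13 further settings were tried, and list genes were refitted without KO5, and without KO5 and WT6, as chosen after seeing the data.

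The members and lists were chosen with earlier results of these data known. Named genes are the 10 members, Scgb3a2, the 5 nearest profiles and up to 3 genes of smallest p per list. Klrc1, Klrc2, Klri1 and Klri2 (partner chains), Rab27a, Gzmm, Gzmk, Gzmc, Fasl, Ifng, Xcl1, Cd8a, Trdc, Cd3e and markers of other cells were named outside this rule after their values were seen.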

Additional observations from a re-analysis of the deposited data

Results flagged for a closer look

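Values of the 4 wild type libraries were examined for 50 genes, the 10 members and genes named from the other lists, for a highest or lowest library far from the rest. None of the 10 members stood out by Dixon's test. Cxcr3, a chemokine receptor of activated T and NK cells, stood out with 0.703 CPM in WT6, below the other wild type libraries. Msln, a mesothelial gene, stood out with 55.3 CPM in WT6, above the others, and Cd6, a T cell gene, with 2.04 CPM in WT3, above the others. Chance alone flags about 1 in 20 such groups.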

How the results depend on the processing

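None of the 10 members was called under any of the 14 alternatives, in which the smallest adjusted p was 0.262 (Gzma, replicate block). Of 140 log2 fold changes, 120 kept their sign, and Gzma, Ncr1, Klrd1, Klre1 and Eomes kept it in all 14. Gzma ran from -1.58 (without KO5) to -0.37 (without KO4) with adjusted p from 0.262 to 1, Ncr1 from -2.04 (without KO5) to -0.86 (replicate block), Klrd1 from 0.02 (without WT4) to 0.47 (without WT6), Klre1 from -0.71 (without KO5) to -0.22 (without WT3) and Eomes from 0.03 (without WT3) to 1.68 (replicate block, unadjusted p = 0.021, adjusted p = 0.714). Opposite signs with the replicate block were Gzmb 0.0067, Nkg7 0.4787, Klrb1c 0.1645 and Tbx21 0.0245. Prf1 was at -0.0472 with the term for WT6 and KO5 and at -0.0365 without both. When single libraries were dropped, the log2 fold changes that took either sign ran from -0.56 to 0.21 for Gzmb, -0.69 to 0.16 for Tbx21, -0.35 to 0.37 for Nkg7, -0.51 to 0.20 for Klrb1c, -0.27 to 0.27 for Prf1. The cause of these changes was not tested.

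Over all genes, 7 were called, 56 with DESeq2, 29 with the term for WT6 and KO5, 14 without both, 140 with the replicate block, and 3 (without WT2, WT3 or WT4) to 41 (without KO3) with a library left out. The numbers 3 and 4 occur in both genotypes, but nothing says that they mark a shared animal or day. Deviations of the same-numbered libraries correlated at 0.24 and 0.20, close to KO3 with WT4 (0.24) and KO4 with WT3 (0.22). The remaining pairs ran from -0.42 (KO3 with WT6) to 0.59 (KO5 with WT6). Relative to Cd3e, Gzma and Klre1 stayed lower with each library left out, where no exact p can fall under 0.0667. So did all other members except Eomes, and with all libraries 98.8% of other genes were lower too. Eomes ran from -0.7572 to 0.0176 (without WT2), and was at 0.0413 without WT6 and KO5 and 0.1823 against Ptprc.

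Depth limits precision too: 5 of the members had 125 counts or fewer in all 7 libraries together.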
